A study of Rattus norvegicus with 2 samples.

Results

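The 10 genes described here encode the natriuretic peptide system and the nitric oxide branch of cyclic GMP (cGMP) signalling: Nppa, Nppc, Npr1, Npr2, Npr3, Nos1, Nos3, Gucy1a1, Gucy1b1 and Prkg1. They were listed by name for their place in the pathway, with earlier results of these data known, and were found through the RefSeq transcript accession of each array probe, as 12 probes among the 21102 probes that could be named. They are 10 of 16575 named genes on the array, and all 10 were well above background on both arrays.

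Both second-messenger routes end in cGMP. Natriuretic peptides bind receptors whose intracellular part is itself a guanylyl cyclase, while nitric oxide, a gas made by nitric oxide synthases, activates a soluble guanylyl cyclase in the cytosol, and a cGMP-dependent protein kinase carries part of the signal of both. In the nucleus of the solitary tract (NTS), the region of the dorsal medulla where baroreceptor afferents end, both routes are known to take part in the control of blood pressure.

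The female array held RNA from the NTS of female SHR (spontaneously hypertensive rats, which become hypertensive with age), and the male array RNA from the NTS of male SHR. All rats were 9 weeks old and untreated as far as the labels say, and no normotensive strain is among these samples. Each array was a single 1-colour hybridisation of RNA pooled from 5 rats, 100 ng from each, so there is 1 sample per sex and no measure of the spread between animals. No p-value is given below, and every difference compares 2 pools.

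The signal unit used below is the scaled signal, on which the 75th percentile of each array is 100. Differences are female minus male on the log2 scale, and a gene was called different when its arrays were at least 1.5-fold apart. Differences were taken between arrays within a probe, because probes differ in how well they bind. Summed signals and names of brightest genes do set probes side by side, so they also depend on how well each probe binds. Of the spots outside the controls, 82.3% of the female array and 80.1% of the male array were well above background. Of 3 Y-linked genes with a named probe, Eif2s3y was above background on the male array only, Ddx3y had 10.2 in the female pool and 24.3 in the male pool, and Uty was not well above background on either array. Among markers fixed for NTS neurons, 8 of 10 were measured and none was past 1.5-fold. Their median was 0.09, and 6 of the 8 were higher in the female pool, as were 7449 of the 13424 genes measured on both arrays. The highest was Prlh at 0.41. The lowest was Th, the rate-limiting enzyme of catecholamine synthesis, at -0.18, with 532 in the female pool and 602 in the male pool. Of 5 measured erythroid genes, 4 were past 1.5-fold with the male array higher, by -0.73 for Alas2 to -0.93 for Slc4a1. All 8 oligodendrocyte markers were also higher in the male pool, against 5975 of the 13424 genes measured on both arrays. None of the 8 was past 1.5-fold, and their median was -0.22. Of 9 measured cerebellar markers, 8 were higher in the female pool, against 7449 of the 13424 genes, and their median was 0.11. Only Fat2 was past 1.5-fold, with the female array higher, at 1.03. Fat2 was dim, with 0.97 in the female pool and 0.47 in the male pool. No marker of neurons in general, astrocytes or microglia was past 1.5-fold. Higher in the male pool were 8 of 10 neuron, 5 of 8 astrocyte and 7 of 8 microglia markers. The medians of these lists were -0.06, -0.05 and -0.04. Neuron markers ranged from -0.44 for Nefl to 0.06 for Elavl4. The part of these cells in the differences below was not tested.

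Of the 10 genes, 1 was past 1.5-fold, the clearance receptor gene Npr3, which was higher on the female array. Over all 13424 genes measured on both arrays, 2.29% were past 1.5-fold in either direction and 1.5% were past it with the female array higher. At 2-fold none of the 10 was called, against 0.551% of all measured genes. The other 9 genes differed by less than 0.32 on the log2 scale, a size that 8.14% of all measured genes reached. The median of the 10 differences was 0.03, against 0.02 for all measured genes.

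**Figure D1:**
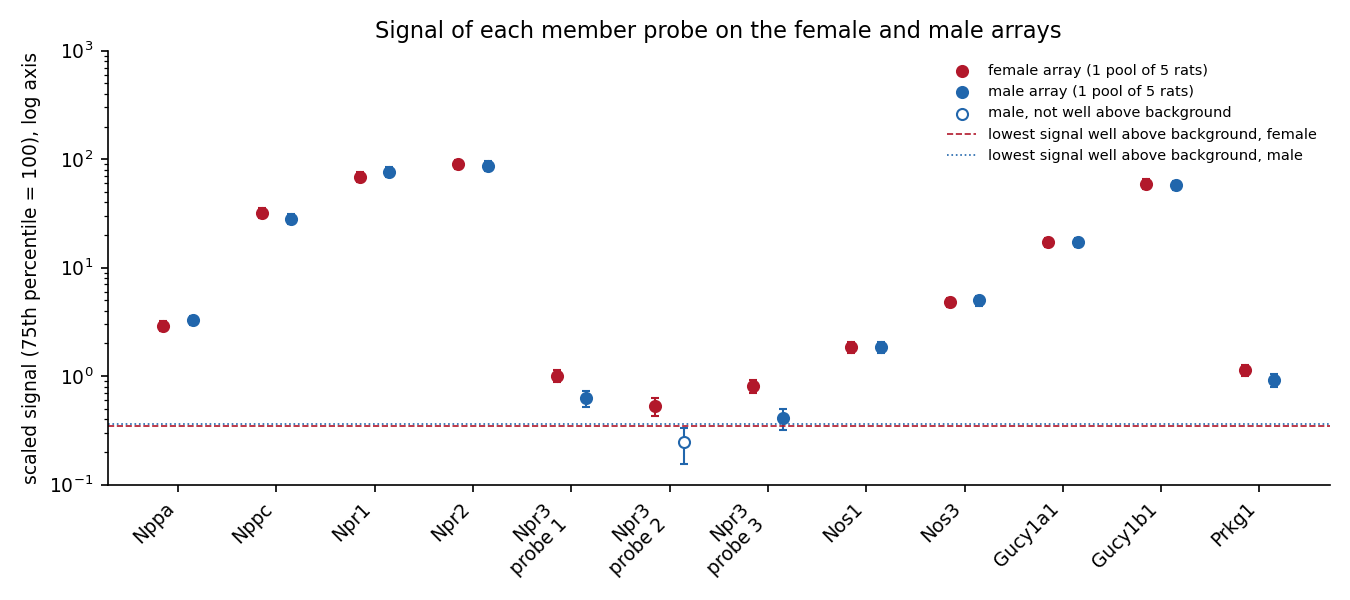
Scaled signal (log axis) of the 12 probes of the 10 genes on the female array (red, left of each pair) and the male array (blue, right), 1 pool of 5 rats each. Bars are the scanner software's error of the spot and the open circle is a probe not well above background. Signals of a pair lie close together except for the 3 probes of Npr3, which are also nearest to the background limits, 0.344 (female) and 0.365 (male).

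The peptide genes differed little. Nppa, which encodes atrial natriuretic peptide, gave 2.90 ± 0.30 in the female pool and 3.27 ± 0.34 in the male pool, where ± is here and below the error that the scanner software gives for the spot. This difference of -0.17 was smaller than its error of 0.21. Nppc, which encodes C-type natriuretic peptide, had 31.9 ± 3.2 in the female pool and 28.3 ± 2.8 in the male pool. Its difference of 0.17 went the other way and was also below its error of 0.20. In the 25% of genes with signals between 15.4 and 58.3, where Nppc lies, the differences had an SD of 0.16 across genes, and 89.5% of those genes differed by the same amount or less. Against each other, Nppc was shifted by 0.35 ± 0.29 relative to Nppa.

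The 2 signalling receptors, which carry the guanylyl cyclase, were both in the brightest 25% of genes. Npr1, the receptor of atrial natriuretic peptide, had 68.9 ± 6.9 in the female pool and 76.8 ± 7.7 in the male pool, a difference of -0.16 with an error of 0.20. Npr2, the receptor of C-type natriuretic peptide, had 89.8 ± 9.0 in the female pool and 86.9 ± 8.7 in the male pool, a 1.03-fold difference. Both differences were smaller than the scanner error of the spot. Repeat spots scattered less than that error: among probes with at least 8 spots in the same signal range, the SD of the difference between spots had a median of 0.038. Across the genes of that range the differences had an SD of 0.13, and 92.2% of them were of the same size as that of Npr1 or smaller.

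Npr3 encodes the receptor that binds all natriuretic peptides and takes them up for degradation, and that has no guanylyl cyclase. It was read by 3 probes, each with 1 spot. Probe A_44_P1082124 had 1.01 ± 0.13 in the female pool and 0.628 ± 0.106 in the male pool, a 1.61-fold difference. Probe A_64_P036616 had 0.813 ± 0.111 in the female pool and 0.411 ± 0.090 in the male pool, a 1.98-fold difference. Probe A_44_P715788, designed to a predicted transcript, had 0.526 ± 0.097 in the female pool and 0.244 ± 0.089 in the male pool. In the male pool it was not well above background. Its female signal was 1.44-fold the lowest signal well above background on the male array, 0.365. All 3 probes were higher on the female array, and they may read the same transcripts, so they do not count as replicates.

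Over the 2 probes measured on both arrays, the difference of Npr3 was 0.84 with a scanner error of 0.24, or 1.78-fold. Relative to Npr1, Npr3 was shifted by 0.99 ± 0.32 towards the female array, and relative to Npr2 by 0.79 ± 0.32. Npr3 was among the dimmest genes, at the 3.43rd percentile of signal. In the dimmest 10% of genes, 8.49% were past 1.5-fold with the female array higher, and 96.0% had a difference of smaller size than that of Npr3. In the unprocessed scan the spot of A_44_P1082124 had a median brightness of 60.5 over a local background of 33 on the female array, against 49 over 35 on the male array. For A_64_P036616 the same readings were 57 over 38 in the female pool and 46 over 42 in the male pool.

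The size of the Npr3 difference depended on the processing. It was 0.19 with normexp, which adds an offset of 50, and 0.27 without background correction, so that neither reached 1.5-fold. Both settings also start from the median spot signal and not from the processed signal, and which of these changes moved the value was not tested. The Npr3 difference stayed past 1.5-fold in the other 9 settings in which it had a value, and was higher on the female array in all 11. Those 9 start from the same processed signal, and several could hardly have given another answer. Keeping flagged spots or taking the median of probes left the value at 0.84. The authors' table, the same signal divided by a constant per array, gave 0.83. The lowest value among the 9 was 0.68, with quantile normalization.

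**Figure D2:**
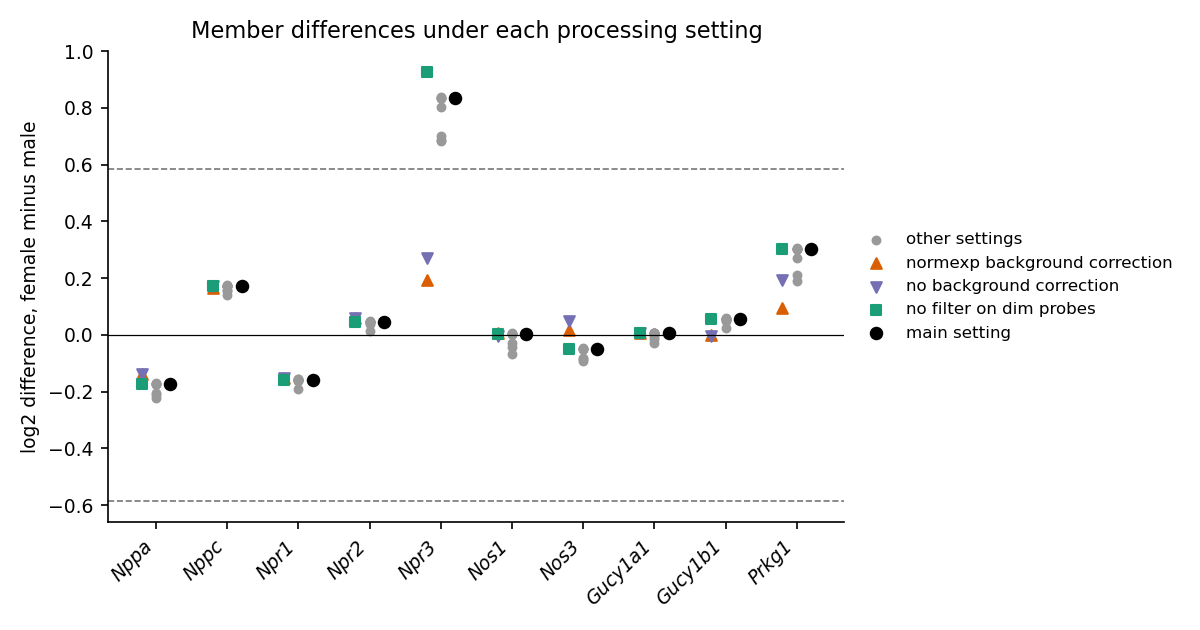
Log2 difference, female minus male, of each of the 10 genes in the main setting (black) and the other processing settings, with dashed lines at 1.5-fold. Npr3 is past the upper line except with normexp (0.19) and without background correction (0.27), and the other 9 genes stay between the lines in every setting shown.

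The choroid plexus, a secretory epithelium of the brain ventricles, lies beside the NTS and is a known site of natriuretic peptide receptors. All 11 measured genes of a list of 12 choroid plexus markers were past 1.5-fold with the female array higher, by 0.96 for Folr1 to 4.56 for Kcnj13, and none was at 0. Their summed scaled signal was 9556 in the female pool and 679 in the male pool, most of it from Ttr, and without Ttr it was 231 in the female pool and 61.6 in the male pool. The meninges, connective tissue membranes around the brain, gave a mixed picture. Of 9 measured genes on a list of 10, Slc47a1 and Igf2 were past 1.5-fold with the female array higher, by 1.17 and 0.80, and Col1a2 with the male array higher, at -0.76. The median of that list was 0.14, and 6 of the 9 genes were higher in the female pool, against 7449 of all 13424 measured genes. Its summed scaled signal was 1037 in both pools, and without Ptgds, the brightest of them at 0.58, it was 496 in the female pool and 675 in the male pool. The part of choroid plexus or meningeal tissue in the Npr3 difference was not tested. In RNA from whole tissue, a change in the number of cells of a type and a change in RNA per cell cannot be told apart.

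The 2 synthase genes among the 10 differed by less than the scanner error of their spots. Nos1, the neuronal nitric oxide synthase gene, had 1.84 ± 0.20 in the female pool and 1.84 ± 0.21 in the male pool, a difference of 0.00 on the log2 scale. Nos3, the endothelial synthase gene, had 4.81 ± 0.49 in the female pool and 4.98 ± 0.50 in the male pool, a difference of -0.05 against an error of 0.21. None of 10 endothelial markers was past 1.5-fold. They ranged from -0.35 for Kdr to 0.09 for Emcn, with a median of -0.10. Of the 10, 8 were higher in the male pool, against 5975 of all 13424 measured genes. Their summed scaled signals were 172 in the female pool and 201 in the male pool. Each synthase had 1 probe with 1 spot, with a scanner error of 0.23 for Nos1. The median SD between repeat spots of other probes was 0.19 in the signal range of Nos1 and 0.092 in that of Nos3, and both differences were smaller than these as well.

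Gucy1a1 and Gucy1b1 encode the alpha and beta subunits that pair to form the soluble, nitric oxide-sensitive guanylyl cyclase, and they are direct neighbours in the RefSeq gene order of rat assembly GRCr8. Gucy1a1 had 17.2 ± 1.7 in the female pool and 17.1 ± 1.7 in the male pool. Gucy1b1 had 59.6 ± 6.0 in the female pool and 57.3 ± 5.7 in the male pool. The 2 subunit genes were thus within 1.00-fold and 1.04-fold between the arrays, and their differences were 0.05 ± 0.29 apart. The signs of such small differences were not stable, and those of Nos1, Nos3, Gucy1a1 and Gucy1b1 each turned in at least 2 of 11 or 12 other settings.

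Prkg1 encodes the type I cGMP-dependent protein kinase, which mediates smooth muscle relaxation and is also expressed in neurons. It had 1.13 ± 0.14 in the female pool and 0.920 ± 0.123 in the male pool, a 1.23-fold difference. On the log2 scale this was 0.30 with an error of 0.26, the second largest difference among the 10 genes. Prkg1 was also dim, and 60.2% of the dimmest 10% of genes differed by less. With normexp its difference was 0.10. Of 9 measured mural and smooth muscle markers none was past 1.5-fold. They ranged from -0.24 for Kcnj8 to 0.25 for Myh11, with a median of -0.07. Of the 9, 7 were higher in the male pool, against 5975 of all 13424 measured genes. Their summed scaled signal was 131 in the female pool and 126 in the male pool, and without Cspg4, the brightest, it was 63.9 in the female pool and 66.7 in the male pool.

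**Figure D3:**
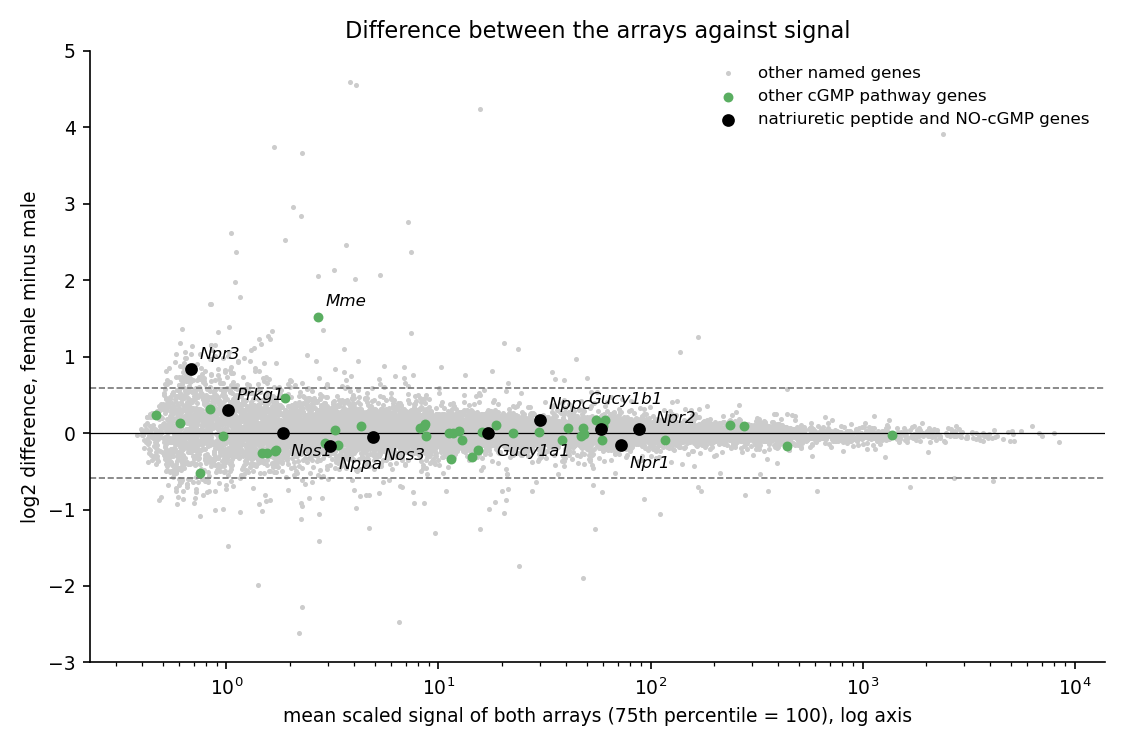
Log2 difference, female minus male, against the mean scaled signal of both arrays (log axis) for 13424 genes, with the 10 genes in black, other cGMP pathway genes in green and dashed lines at 1.5-fold. The scatter of all genes widens towards low signal, where Npr3 (0.84) and Prkg1 (0.30) lie, and Mme (1.52) stands furthest out among the pathway genes.

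The wider pathway was described with 60 further genes grouped by role, of which 44 were measured on both arrays. Of these 44, 1 was past 1.5-fold with the female array higher and 0 with the male array higher, against the 1.5% and 0.797% of all measured genes. Their median was 0.00 on the log2 scale, and 40 of them differed by less than 0.32, as did 91.9% of all measured genes.

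Among genes that make or break down the peptides, 4 of 6 were measured. Mme, which encodes neprilysin, a peptidase that degrades natriuretic peptides among others, had 4.56 in the female pool and 1.59 in the male pool, a 2.87-fold difference from 1 probe with 1 spot. The difference was 1.52 with a scanner error of 0.22, and 0.72 with normexp. Corin, the protease that activates the atrial peptide precursor, was named after its values were seen. It had 2.21 in the female pool and 1.60 in the male pool, a 1.38-fold difference. These values came from 1 probe designed to a predicted transcript, with a difference of 0.46 and a scanner error of 0.22. The other Corin probe was not well above background on either array. The gene of this group with the highest mean signal over its probes, the proprotein convertase gene Furin, was within 1.12-fold. One of the 2 probes of Ide, which encodes insulin-degrading enzyme, was brighter still, at 124 in the female pool and 129 in the male pool. Nppb, which encodes B-type natriuretic peptide and is the direct neighbour of Nppa in the assembly, was not well above background on either array. The part of choroid plexus tissue in the Mme difference was not tested.

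Of 14 further genes of nitric oxide synthesis and its supply, 12 were measured and 0 were past 1.5-fold. All 12 differed by less than 0.32, a share near that of all measured genes, and their median was -0.01. The brightest, Dynll1, a dynein light chain that binds neuronal nitric oxide synthase, was within 1.02-fold. Nos2, the inducible synthase gene, had 2 probes above background on the female array only. Its brighter probe had 0.700 in the female pool and 0.382 in the male pool, where it was not well above background, a ratio of 1.83-fold. This is the plain ratio, since 0.382 exceeds 0.365, the lowest signal well above background on the male array. On the log2 scale the difference was 0.87 with a scanner error of 0.44. For the other probe the female signal was 1.85-fold that lowest male signal, and the difference of 1.62 had a scanner error of 0.70.

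Of the other guanylyl cyclases and their ligands, 4 of 9 were measured and 0 were past 1.5-fold. Gucy1a2, the alternative alpha subunit of the soluble enzyme, was the brightest and was within 1.07-fold. Downstream of cGMP, 10 of 13 target genes were measured and 0 were past 1.5-fold, with a median of 0.02. Rgs2, a regulator of G-protein signalling that the kinase activates, was within 1.06-fold. Vasp, which encodes a kinase substrate at the actin cytoskeleton, was named after its values were seen. It differed by 1.26-fold with the male array higher, as the mean of 2 unlike probes. The bright probe, with 10 spots, had 60.4 in the female pool and 65.9 in the male pool, a difference of -0.13. The dim probe, with 1 spot, had 1.71 in the female pool and 2.49 in the male pool. Its difference was -0.55 with a scanner error of 0.22.

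Removal of cGMP was covered by phosphodiesterases and efflux transporters, with 14 of 18 genes measured, 0 past 1.5-fold and a median of -0.06. The brightest, the transporter gene Abcc5, was within 1.07-fold. The difference was largest for Pde6a, a photoreceptor phosphodiesterase gene named after its values were seen, at -0.52 from 1 dim probe. Its other probe was above background on the female array only, at 1.53-fold the lowest signal well above background on the male array. The 2 probes of Pde6a thus disagree in direction.

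Of the 60 pathway genes, 55 had a named probe. Of these 55, 6 were above background on the female array only and 0 on the male array only. Over all 16575 named genes these numbers were 462 and 150. The 6 genes were Ostn, Nos2, Gucy2f, Cngb3, Pde3a and Pde6b, and their female signals did not exceed 0.700. A further 5 genes were not well above background on either array, and 5 had no named probe.

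**Figure D4:**
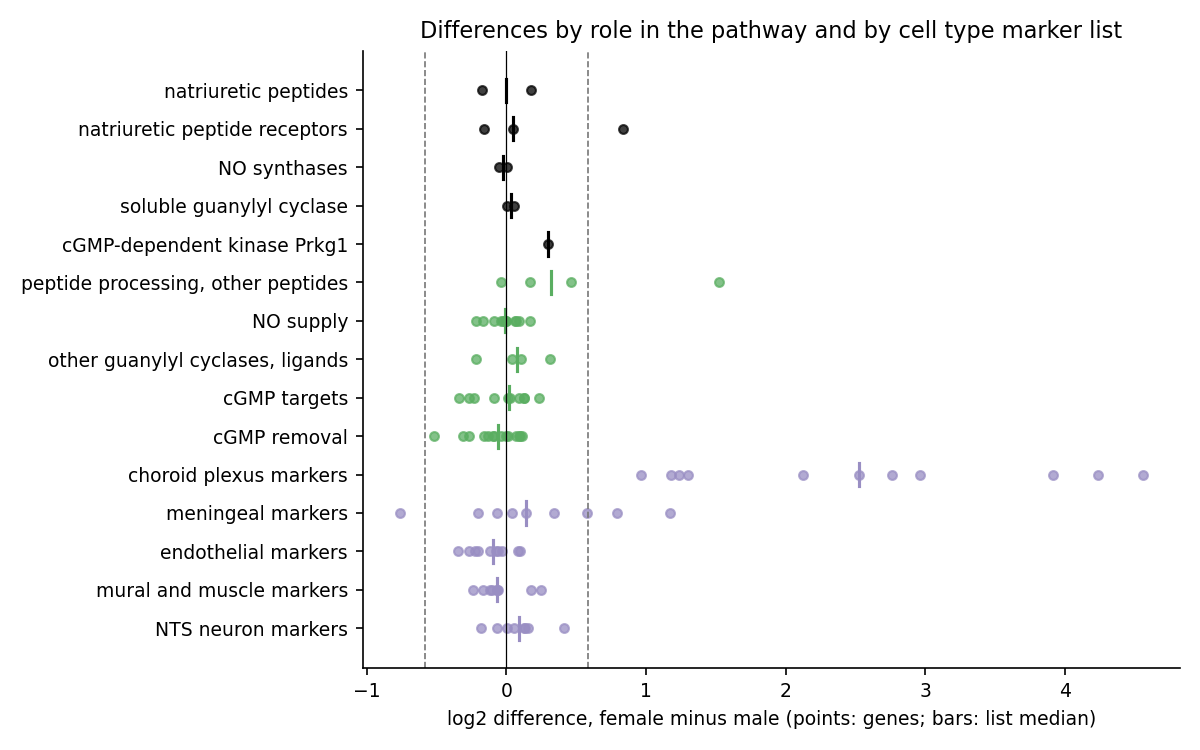
Log2 difference, female minus male, of each measured gene (points) and the list median (bars) for the roles of the 10 genes (black), the wider pathway (green) and marker lists (purple), with dashed lines at 1.5-fold. Npr3 at 0.84 and Mme at 1.52 are the points past the line among black and green, while all 11 choroid plexus markers lie past it.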

How the data were processed

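Per the labels, RNA of 5 rats per sex was pooled for 1 Agilent 1-colour array. The deposited intensity values come from Agilent Feature Extraction 11.5.1.1, per the file headers (9.1 per the submitters' processing notes), background-corrected but not normalized between arrays. The authors' deposited table equals that intensity divided by 23.4 (female) and 22.8 (male), which puts the 75th percentile at 100; it is linear and uncentred, carries no sign, and has medians of 19.6 and 19.4.

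Here the processed signal was divided by its 75th percentile over the 58717 spots outside the controls and put on the log2 scale. Spots with an outlier flag on either array (363 female, 284 male) were left out; none was saturated. Probes well above background on both arrays counted as measured, and their mean gave the gene. Probes were named by unversioned accession through RefSeq genes of GRCr8; the array design uses an older assembly, so no coordinates are given. A bound sets the brighter array against the higher of the dim signal and the lowest signal well above background on that array. Where the dim signal is the higher of these, the value is a plain ratio and no bound. Spot errors are the scanner software's, combined as independent; they cover neither animals, pools nor labelling.

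The 10 genes and all lists were chosen with earlier results of these data known. The text names the 10, pathway genes past 1.5-fold and the brightest of each pathway list. For marker lists given beside one of the 10, it names the extremes or the genes past 1.5-fold. Named outside this rule were Th, Prlh, Alas2, Slc4a1, Fat2, Nefl, Elavl4, Ttr, Ptgds, Cspg4, Corin, Ide, Nppb, Vasp and Pde6a. So were the Y-linked genes, read as a check of labels, and the pathway genes above background on the female array only. Summed signals and names of brightest genes use the gene means. With 2 arrays no likeness of pattern between genes could be formed. Alternatives were normexp (offset 50), no background correction (these read the median signal of the spots, since the planned mean signal was not used here), 4 scalings, the authors' table, 2 filters on dim probes, 2 gene summaries, flagged spots kept, and thresholds of 0.32 and 1 on the log2 scale in place of 0.58 (1.5-fold). The counting was tested on simulated data, with changes larger than that of Npr3 and with the scatter of repeat spots as the only noise. That test checks the code and does not bear on the Npr3 call. Tools were Python 3.11.15, numpy 2.4.6, pandas 2.3.3, statsmodels 0.14.6, R 4.3.3 and limma 3.58.1.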

Additional observations from a re-analysis of the deposited data

How the results depend on the processing

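No paired analysis was possible because neither sex has a second array. The count of 1 of the 10 genes past 1.5-fold became 0 with normexp, without background correction, at 2-fold and in the brighter probes, where 5 of the 10 genes, not including Npr3, had a value. The count for the pathway genes with the female array higher was 7 of 55 with no filter on dim probes. It was 0 of 28 in the brighter probes, where Mme had no value, and 2 of 44 with the threshold at 0.32 on the log2 scale. With the male array higher it was 1 of 44 with quantile normalization and with loess. It was 2 of 55 with no filter and 2 of 44 with the threshold at 0.32 on the log2 scale. Over all 13424 genes, the counts were 201 with the female array higher and 107 with the male array higher. They became 37 and 33 with normexp, and 50 and 38 without background correction. They were 1134 and 513 of 16575 genes with no filter, and 20 and 27 of 8542 genes in the brighter probes. With the threshold at 0.32 on the log2 scale they were 684 and 409, and at 2-fold 54 and 20. The female share of calls was 65.3%, and 46.6% with quantile normalization, 48.1% with loess, 52.9% with normexp, 42.6% in the brighter probes. Npr3 and Mme each moved by more than their spot error with normexp and without background correction, Mme to 0.72 and 0.96. The cause was not tested. Signal over background limits Npr3, Nos1, Prkg1 and Nppa most, and 1 array per sex limits all.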
